A study of Oryza sativa Japonica Group with 8 samples.

Results

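F-box protein genes of the young rice panicle were followed in wild type plants and in a dcl3b knockdown mutant. They were chosen by description: every gene in the authors' lists of transcripts called higher or lower in the knockdown whose description contains "F-box" or "OsFB", with transposon rows left out. The choice gave 34 of the 1174 listed genes. The study used field-grown plants of the japonica subspecies of Oryza sativa, with no treatment, and panicles taken ahead of heading. It comprised 3 mRNA libraries of wild type, 3 mRNA libraries of the knockdown and 1 small RNA library of each genotype. How OsDCL3b was knocked down, how many lines were used and whether plants were pooled or sampled separately are details the labels do not state, so the replicate spread may be technical. A young panicle mixes many tissues, and fewer cells of a type cannot be told apart from less RNA per cell in any value below. Because the lists hold only genes already called changed, the levels of defining panicle genes outside them were not analysed here.

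F-box proteins are the interchangeable receptor subunits of SCF ubiquitin ligases. The F-box, a short motif usually near the amino end, docks on SKP1, which links it to a cullin scaffold and to a RING protein that brings in the ubiquitin-charged E2 enzyme. The rest of the F-box protein selects the target to be degraded, and families are named for that part: FBL proteins carry leucine-rich repeats, FBDUF proteins a domain of unknown function, FBLD proteins leucine-rich repeats with an FBD domain, FBO proteins some other domain, and FBX proteins no further recognised domain. Plant genomes hold very large F-box families, in which hormone receptors, flowering regulators and many members of unknown target are found. OsDCL3b is one of the Dicer nucleases, which make siRNAs from RNA duplexes, and is known in rice for the phased siRNAs of reproductive tissue.

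The targeted gene OsDCL3b (LOC_Os10g34430) was itself lower in the knockdown, at 0.97, 0.98 and 0.88 FPKM in wild type against 0.39, 0.50 and 0.44 FPKM in the knockdown. FPKM is a level scaled by the authors to library depth and transcript length. The number of reads behind an mRNA value is unknown, so no counting error could be given. Across all listed genes, knockdown replicate 2 was the knockdown library nearest to wild type in 67.9% of the genes called lower and 61.6% of those called higher, and this library is followed below.

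Most listed F-box transcripts were lower in the knockdown. Of the 34, 26 fell and 8 rose by the authors' call, which every listed gene meets with an adjusted p no higher than 0.05 and a change of 1 or more log2 units in either direction. Over all 1174 listed genes 45.1% were called lower and 54.9% higher. That total includes transposon genes, which the choice of F-box genes left out. Outside transposons 512 listed genes fell and 507 rose. The deposited lists do not show how many F-box genes were tested without a call, so the counts do not say how often the family changed. Those that fell went from a median of 0.560 FPKM in wild type to 0.173 FPKM in the knockdown, and the knockdown kept between 11.3% and 48.5% of the wild type mean (median 32.3%). Those that rose went from a median of 0.340 to 0.998 FPKM. In the authors' deposited table the median log2 fold change of the 26 was -1.58, against -1.44 for all 530 genes that fell. The order was the reverse among genes that fell from under 1 FPKM in wild type. There the median was -1.64 for 22 F-box genes and -1.81 for all 201 listed. For the 7 that rose from a level above 0 the median was 1.69, against 2.04 for all 511 such genes and 1.87 for the 431 of them outside transposons.

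In all 34 genes the 3 libraries of one genotype lay wholly on one side of the other 3. Among all listed genes this held for 89.1% of those that fell and 84.6% of those that rose, and for 96.0% of the 201 genes that fell from under 1 FPKM. Selection had used these same values, and with 3 libraries on each side p = 0.10 is the smallest value an exact two-sided permutation test of a gene can reach. The gap between the nearest libraries of the 2 genotypes was small for several: among the 26 that fell its median was 0.11 FPKM, and in 6 it was at most 0.05 FPKM.

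**Figure D1:**
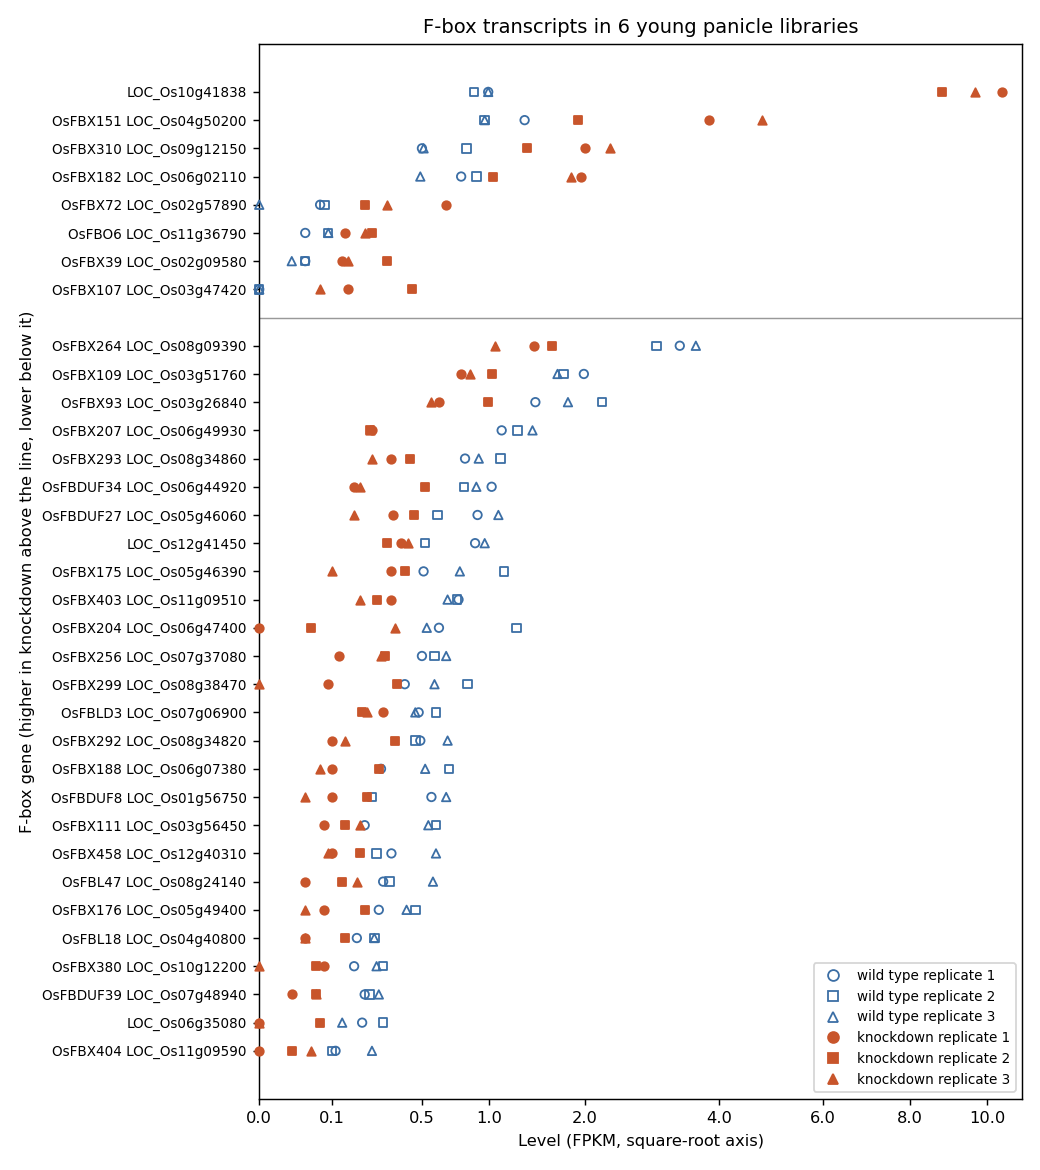
Level of the 34 F-box genes (rows, ordered by mean level within each direction) in FPKM on a square-root axis, with open symbols for the 3 wild type libraries and filled symbols for the 3 knockdown libraries, the shape giving the replicate. LOC_Os10g41838 stands alone at 8.80 to 10.43 FPKM in the knockdown, while the 26 genes that fell all stay at or under 3.60 FPKM in every library.

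The FBX class, with no recognised domain beside the F-box, held 23 of the 34 genes, of which 17 fell and 6 rose. The most abundant of those that fell was OsFBX264 (LOC_Os08g09390), with 3.34, 2.98 and 3.60 FPKM in wild type against 1.43, 1.62 and 1.05 FPKM in the knockdown. Its wild type libraries stood clear of its knockdown libraries by 1.36 FPKM, the widest gap of the 26, and the authors' deposited table put the log2 difference at -1.26 (adjusted p = 4.98e-06). OsFBX109 (LOC_Os03g51760) was at 1.99, 1.75 and 1.68 FPKM in wild type against 0.77, 1.02 and 0.84 FPKM in the knockdown, the smallest log2 fold change of the 26 in the authors' deposited table (-1.03, adjusted p = 0.00417). OsFBX93 (LOC_Os03g26840) was more variable, at 1.44, 2.22 and 1.80 FPKM against 0.61, 0.99 and 0.56 FPKM. These 3 FBX genes and OsFBX207 were the only ones of the 26 with a wild type mean above 1 FPKM.

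OsFBX207 (LOC_Os06g49930) combined a large fall with little spread. It measured 1.11, 1.26 and 1.41 FPKM in wild type against 0.24, 0.23 and 0.23 FPKM in the knockdown, which makes means of 1.26 ± 0.15 and 0.233 ± 0.00577 FPKM (SD, n = 3 in each genotype). The authors' deposited table put its log2 difference at -2.41 and gave, with 1.03e-21, the smallest adjusted p of the F-box genes that fell.

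The FBX genes with the deepest falls were less even. OsFBX204 (LOC_Os06g47400) was at 0.61, 1.25 and 0.53 FPKM across wild type, whereas in the knockdown it was listed at 0 in replicate 1 and at 0.05 and 0.35 FPKM in the others. The authors' deposited table put its log2 difference at -2.72 (adjusted p = 0.00647), and knockdown replicate 3 lay far closer to wild type than the other knockdown libraries. OsFBX404 (LOC_Os11g09590) was the least abundant of the 26, at 0.11, 0.10 and 0.24 FPKM in wild type against 0, 0.02 and 0.05 FPKM in the knockdown. Its entry in the authors' deposited table is a log2 fold change of -2.73 at adjusted p = 0.0383. At such levels the rounding of the deposited values to 2 decimals is a sizeable part of the value.

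FBDUF genes, whose products pair the F-box with a domain of unknown function, were 4. All 4 fell, as did 26 of all 34 F-box genes. OsFBDUF39 (LOC_Os07g48940) was at 0.21, 0.23 and 0.27 FPKM in wild type against 0.02, 0.06 and 0.06 FPKM in the knockdown, and the authors' deposited table put the log2 difference at -2.32 (adjusted p = 0.00624). OsFBDUF27 (LOC_Os05g46060) was at 0.90, 0.60 and 1.08 FPKM against 0.34, 0.45 and 0.17 FPKM. The other FBDUF genes, OsFBDUF34 and OsFBDUF8, went from 0.900 ± 0.115 to 0.293 ± 0.197 FPKM and from 0.487 ± 0.219 to 0.120 ± 0.0917 FPKM (SD, n = 3). The class thus covered wild type means from 0.237 to 0.900 FPKM, and the knockdown kept 19.7% to 37.2% of them.

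Leucine-rich repeats, the target-binding part of the known F-box hormone receptors for auxin and jasmonate, were named in 3 descriptions. These 3 genes fell, as did 26 of all 34 F-box genes. OsFBL18 (LOC_Os04g40800) was at 0.18, 0.25 and 0.25 FPKM in wild type against 0.04, 0.14 and 0.04 FPKM in the knockdown. OsFBL47 (LOC_Os08g24140) was at 0.29, 0.32 and 0.57 FPKM against 0.04, 0.13 and 0.18 FPKM. For OsFBLD3 (LOC_Os07g06900), which adds an FBD domain, the libraries read 0.48, 0.59 and 0.46 FPKM in wild type against 0.29, 0.20 and 0.22 FPKM in the knockdown. Its fall was among the smallest, at -1.1 log2 units (adjusted p = 0.0472) in the authors' deposited table, against -1.55 (0.0239) for OsFBL18 and -1.77 (0.0248) for OsFBL47. Of 5 listed genes whose descriptions spell out leucine-rich repeats but name neither an F-box nor a kinase, 4 rose and 1 fell. Descriptions that only abbreviate the repeats as LRR were not searched, so these 5 are not all such genes.

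A subfamily name was missing from 3 descriptions. LOC_Os06g35080 had the largest fall of the 26 in the authors' deposited table, at -2.90 log2 units, and the adjusted p nearest to the threshold (0.0494). Its level was 0.20, 0.29 and 0.13 FPKM across wild type, whereas in the knockdown it was listed at 0 in replicates 1 and 3 and at 0.07 FPKM in replicate 2. LOC_Os12g41450 was at 0.88, 0.52 and 0.96 FPKM in wild type against 0.38, 0.31 and 0.42 FPKM in the knockdown. Here wild type replicate 2 lay 0.10 FPKM above the highest knockdown library while the other wild type libraries stood well above.

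The last of these, LOC_Os10g41838, gave the clearest change of the family and ran against its main direction. It is described as carrying an F-box protein interaction domain, a part found behind the F-box in many plant F-box proteins, and its description does not mention the F-box itself. Wild type libraries read 0.99, 0.87 and 0.99 FPKM and knockdown libraries 10.43, 8.80 and 9.67 FPKM, a 10.1-fold higher mean. No other F-box gene reached 5 FPKM in any library. The authors' deposited table put the log2 difference at 3.34 (adjusted p = 6.47e-57).

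The other genes that rose were 6 FBX genes and the FBO gene. OsFBX151 (LOC_Os04g50200) was at 1.33, 0.96 and 0.96 FPKM in wild type against 3.82, 1.92 and 4.77 FPKM in the knockdown. OsFBX310 (LOC_Os09g12150) was at 0.50, 0.81 and 0.51 FPKM against 2.0, 1.35 and 2.33 FPKM. For OsFBX182 (LOC_Os06g02110) wild type gave 0.77, 0.89 and 0.49 FPKM and the knockdown 1.95, 1.03 and 1.83 FPKM. In these 3 genes knockdown replicate 2 was the lowest knockdown library, and for OsFBX182 it stood only 0.14 FPKM above the highest wild type library. In log2 units the authors' deposited table put them higher by 1.69 (adjusted p = 5.83e-05), 1.60 (0.000139) and 1.15 (0.00810).

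Low transcripts made up the rest of the rising genes. OsFBX72 (LOC_Os02g57890) was at 0.07, 0.08 and 0 FPKM in wild type against 0.66, 0.21 and 0.31 FPKM in the knockdown. OsFBX39 (LOC_Os02g09580) was at 0.04, 0.04 and 0.02 FPKM against 0.13, 0.31 and 0.15 FPKM. OsFBO6 (LOC_Os11g36790), the single FBO gene, was at 0.04, 0.09 and 0.09 FPKM against 0.14, 0.24 and 0.21 FPKM. The authors' deposited table put it 1.36 log2 units higher (adjusted p = 0.0319), against 2.93 (0.00284) for OsFBX72 and 2.60 (0.00352) for OsFBX39. OsFBX107 (LOC_Os03g47420) stood at 0 throughout wild type, whereas the knockdown libraries read 0.15, 0.44 and 0.07 FPKM, so no fold is given. Here the spread within the knockdown was wide, and in OsFBX39, OsFBX107 and OsFBO6 knockdown replicate 2 was the highest library.

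Beyond the genes given library by library, 9 others fell: OsFBX111, OsFBX176, OsFBX188, OsFBX256, OsFBX299, OsFBX380 and OsFBX458, with OsFBDUF8 and OsFBDUF34. Their single library values ran from 0.17 to 1.02 FPKM in wild type and from 0 to 0.52 FPKM in the knockdown, and their log2 differences, by the authors' deposited table, from -2.14 to -1.32. In OsFBX188, OsFBX111 and OsFBDUF8 the nearest libraries of the 2 genotypes were at most 0.02 FPKM apart. Over all F-box genes, 7 were listed at 0 in at least 1 library.

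Low abundance was shared by most of these genes. Of the 26 that fell, 22 (84.6%) had a wild type mean under 1 FPKM, against 37.9% of all genes that fell, and 7 of the 8 that rose did, against 78.3% of all genes that rose. The genes that fell also sat close to the authors' threshold: 8 of 26 (30.8%) had an adjusted p of at most 0.01 in the authors' deposited table, against 61.9% of all genes that fell. Among genes that fell from under 1 FPKM, the shares were 5 of 22 for F-box genes (22.7%) and 37.8% for all 201 listed. Of those that rose, 7 of 8 (87.5%) had an adjusted p of at most 0.01, against 73.6% of all. Changes of 2 log2 units or more were found in 6 of the 26, against 17.0% of all genes that fell, and in 4 of the 8, against 61.5% of all that rose. Outside transposons the shares over all listed genes were 15.8% of those that fell and 53.8% of those that rose. Among genes that fell from under 1 FPKM such changes were found in 5 of 22 F-box genes and 37.3% of all.

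**Figure D2:**
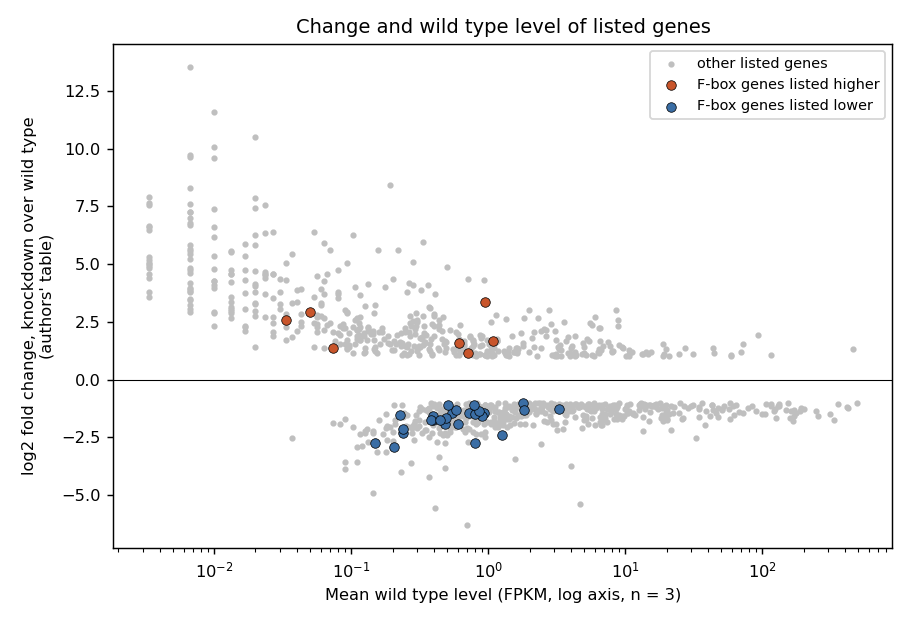
Log2 fold change (knockdown to wild type) in the authors' table (vertical axis) against the mean wild type level in FPKM on a log axis for listed genes above 0 in wild type, with F-box genes that rose in orange, those that fell in blue and other listed genes in grey. F-box genes that fell lie between 0.15 and 3.31 FPKM, and OsFBX107, at 0 in wild type, is not drawn.

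The libraries of a genotype did not contribute alike. Knockdown replicate 2 was the knockdown library nearest to wild type in 17 of the 26 genes that fell (65.4%) and 5 of the 8 that rose (62.5%), close to the shares over all listed genes given above. Relative to each gene's mean over the 6 libraries, the median of the 26 was 0.324, 0.709 and 0.379 in knockdown replicates 1, 2 and 3. Wild type replicates 1, 2 and 3 had medians of 1.28, 1.60 and 1.64. Within wild type, replicate 1 read lowest in 13 of the 26 (50%) and replicate 2 in 8 (30.8%), whereas among all genes that fell replicate 1 read lowest in 23.4% and replicate 2 in 55.7%. Among the genes that rose, replicate 2 was counted as the highest wild type library in 4 of 8 (50%), against 41.8% of all that rose. In all these counts a tie went to the lower replicate number, so genes at 0 throughout wild type counted for replicate 1. OsFBO6, among the 4, tied with replicate 3. The 50% and 41.8% therefore make no clean contrast. Summed over the 26 genes, the level was 18.0, 20.5 and 21.1 FPKM in wild type against 6.17, 9.0 and 5.74 FPKM in the knockdown.

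**Figure D3:**
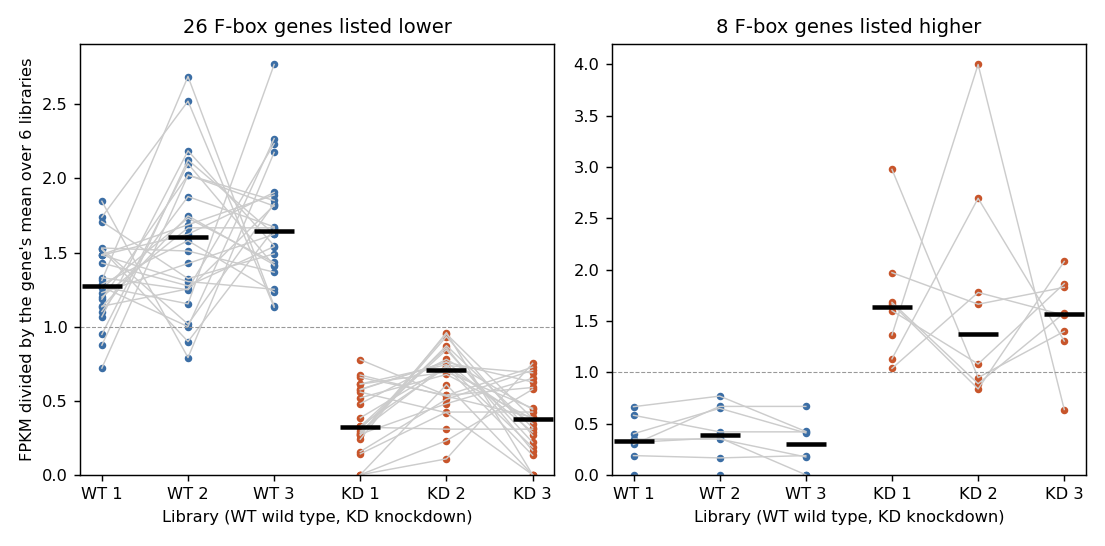
FPKM of each F-box gene divided by its own mean over the 6 libraries (vertical axis) in each library, for the 26 genes that fell (left) and the 8 that rose (right), with grey lines joining a gene within a genotype and black bars at the median. Among the genes that fell, knockdown replicate 2 has a median of 0.709 and the other knockdown libraries 0.324 and 0.379.

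All 34 passed a re-test with limma on log2(FPKM + 0.5) over the 1174 listed genes, in which 96.8% of the genes that fell and 90.1% of those that rose passed. Since the authors' selection used these values too, the re-test shows only how calls move with the libraries. Without knockdown replicate 1, 15 of the 26 passed, against 66.4% of all genes that fell. Without wild type replicate 1, 5 of the 8 passed, against 69.6% of all genes that rose.

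By locus ID, listed F-box genes lay on all 12 chromosomes. Chromosomes 6 and 8 held the most, with 6 and 5 of the 34 (17.6% and 14.7%), where all listed genes had 9.45% and 6.64%. All 5 on chromosome 8 fell, as did 5 of the 6 on chromosome 6. Of all listed genes there, 46 of 78 and 52 of 111 fell, and of all 34 F-box genes 26 fell. Chromosome 1 held 11.2% of all listed genes and 1 F-box gene. Both F-box genes on chromosome 2 rose, where 53 of all 109 listed genes rose. The counts per chromosome are small and were not tested, and the number of F-box genes each chromosome carries was not used here.

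**Figure D4:**
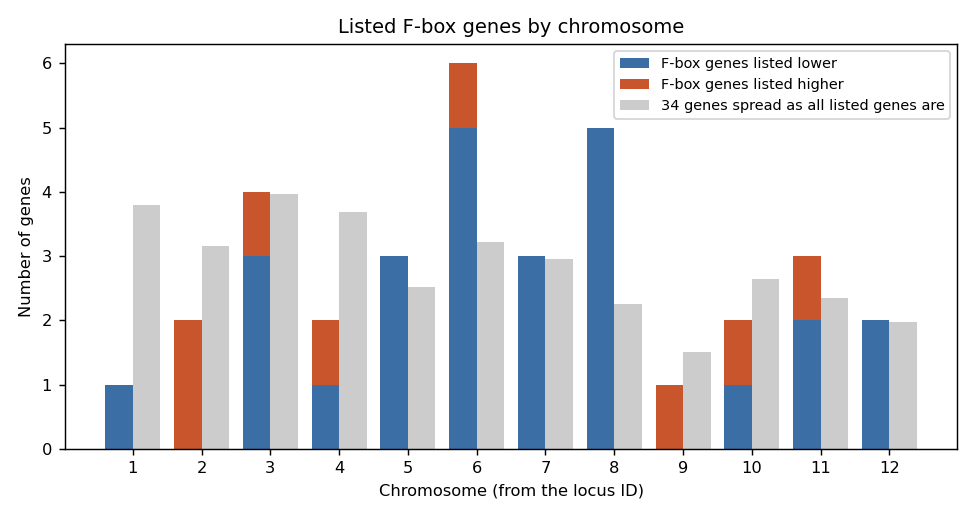
Number of listed F-box genes on each chromosome, taken from the locus ID, with genes that fell in blue and genes that rose in orange; the grey bar is the number 34 genes would have if they were spread as all 1174 listed genes are. Chromosomes 6 and 8 stand at 6 and 5 genes, and chromosome 1 at 1.

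In the 3 cases where members lay within 500 locus numbers of each other, both F-box genes fell (MSU-style locus numbers usually step by 10 along a chromosome). Of all 34 F-box genes 26 fell, and the agreement of the pairs was not tested. On chromosome 8, OsFBX292 (LOC_Os08g34820) was at 0.49, 0.46 and 0.67 FPKM in wild type against 0.10, 0.35 and 0.14 FPKM in the knockdown, and OsFBX293 (LOC_Os08g34860) at 0.80, 1.1 and 0.91 FPKM against 0.33, 0.43 and 0.24 FPKM. The pair kept 36.4% and 35.6% of the wild type mean. On chromosome 11, OsFBX403 (LOC_Os11g09510) was at 0.75, 0.74 and 0.67 FPKM against 0.33, 0.26 and 0.19 FPKM and kept 36.1%, while its neighbour OsFBX404, described above, kept 15.6%. On chromosome 5, OsFBX175 (LOC_Os05g46390) was at 0.51, 1.13 and 0.76 FPKM against 0.33, 0.40 and 0.10 FPKM and kept 34.6%, beside 37.2% for OsFBDUF27. F-box genes often lie in tandem copies of similar sequence, and how reads that match several copies were assigned is not stated in the labels, so values of neighbours may not be independent. Within 20 locus numbers of an F-box gene, a further listed gene was found in 4 cases, and in each both genes fell. Of all listed genes 45.1% fell, and this agreement was not tested either. The 4 are too few to read more into. One of these neighbours is LOC_Os07g37090, a ribosome-inactivating protein gene next to OsFBX256, which was at 186, 227 and 195 FPKM in wild type against 53.0, 123 and 75.7 FPKM in the knockdown.

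Partners of F-box proteins in the SCF complex were found among the listed genes at the SKP1 position. All 4 listed SKP1 genes, which encode the adaptor that holds the F-box, fell. Of all listed genes 45.1% fell, and the agreement of the 4 was not tested. LOC_Os07g43250 was at 6.94, 4.96 and 10.08 FPKM in wild type against 2.79, 4.69 and 1.63 FPKM in the knockdown, with wild type replicate 2 and knockdown replicate 2 only a little apart. Its neighbour LOC_Os07g43260 was at 3.03, 1.72 and 6.14 FPKM against 0.84, 1.53 and 0.65 FPKM, with the same libraries closest. LOC_Os09g10270 was at 1.01, 1.17 and 1.47 FPKM against 0.44, 0.46 and 0.20 FPKM. By the authors' deposited table the log2 differences of these were -1.26 (adjusted p = 0.00931), -1.83 (0.00421) and -1.65 (0.0216). For LOC_Os06g02360, described by the dimerisation domain of the family, the log2 difference by the authors' deposited table was -1.03 (adjusted p = 0.0413). The 4 genes summed to between 10.4 and 19.7 FPKM in wild type and between 3.82 and 7.84 FPKM in the knockdown. How many SKP1 genes were tested without a call is not shown by the lists.

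**Figure D5:**
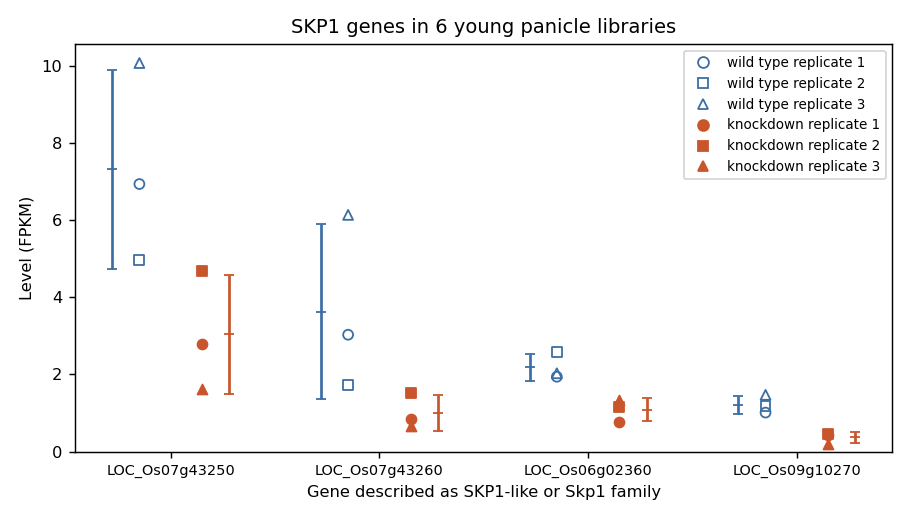
Level in FPKM of the 4 listed SKP1 genes, with open symbols for wild type and filled symbols for knockdown libraries, the shape giving the replicate, and bars for the mean ± SD of 3 libraries beside them. In each gene all knockdown libraries lie below all wild type libraries, and for LOC_Os07g43250 the replicates numbered 2 are 4.96 and 4.69 FPKM.

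Other parts of the ubiquitin pathway, searched by words in the descriptions, were sparse in the lists. The words for cullin, E1, deubiquitinase and proteasome genes matched no listed gene (0 of each). Genes of these kinds described in other words would have been missed. Of 11 genes with a RING or C3HC4 zinc finger, the domain of many single-subunit ubiquitin ligases, 10 fell and 1 rose. Of all listed genes 45.1% fell, and the counts of these pathway lists were not tested. LOC_Os12g02210, a RING finger gene, was the one that rose, from 0.09, 0 and 0.15 FPKM to 2.22, 2.26 and 2.01 FPKM, while LOC_Os12g05270 fell from 0.91, 1.14 and 1.1 FPKM to 0.23, 0.43 and 0.13 FPKM. Both listed BTB genes, LOC_Os11g40220 and LOC_Os10g29110, whose products serve as receptors of cullin ligases in place of SKP1 and an F-box protein, fell, from 0.817 ± 0.138 to 0.220 ± 0.234 FPKM and from 0.467 ± 0.117 to 0.177 ± 0.0473 FPKM (SD, n = 3). The U-box gene LOC_Os06g06490 fell from 7.71 ± 1.44 to 3.32 ± 0.187 FPKM. Of 2 listed E2 genes, which lie close together on chromosome 2, LOC_Os02g48950 fell from 0.297 ± 0.0777 to 0.103 ± 0.0473 FPKM and LOC_Os02g48920 rose from 0.320 ± 0.101 to 0.870 ± 0.278 FPKM (SD, n = 3). LOC_Os09g32020, described as a ubiquitin fusion degradation protein, fell, at 169, 189 and 157 FPKM in wild type against 39.3, 98.0 and 37.7 FPKM in the knockdown. The 2 listed ubiquitin fusion protein genes, LOC_Os07g30640 and LOC_Os09g27930, rose by the authors' call, with knockdown replicate 2 inside the wild type range.

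Listed genes with tissue or cell-division words in their descriptions were also counted. Such words name families and do not establish where a gene is expressed. The 6 with anther, pollen or male sterility in the description that fell summed to between 435 and 475 FPKM in wild type. In the knockdown they summed to between 116 and 301 FPKM, with replicate 2 the highest. Most of this came from LOC_Os02g01190, LOC_Os03g07140 and LOC_Os03g14140. The 4 that rose summed to between 36.1 and 201 FPKM in wild type and between 147 and 739 FPKM in the knockdown, so these sums overlapped. LOC_Os01g70440 alone held 22.1 to 157 FPKM of that in wild type and 112 to 611 FPKM in the knockdown. All 12 listed histone, cyclin and cyclin-dependent kinase genes fell, where 45.1% of all listed genes fell. Their sums ran from 82.4 to 216 FPKM in wild type and from 49.8 to 92.6 FPKM in the knockdown, which also overlapped. In 6 of the 12 all knockdown libraries lay below all wild type libraries, against 89.1% of all genes that fell. The 2 listed MADS genes fell and the 1 listed chlorophyll-binding gene rose. Their part in the F-box values was not tested.

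Small RNA gave no window on the 34 genes. Of the 124 windows of 500 bases that the authors called changed for 21-nt or 24-nt siRNA, 0 named one of them. At 2 windows, both of 24-nt siRNA, the files named an F-box gene that was in neither mRNA list. The window on chromosome 3 from 17615000 to 17615499, at OsFBX95 (LOC_Os03g30920) and LOC_Os03g30934, an ALG14 sugar transferase subunit gene, had 132 reads in wild type and 3 in the knockdown, or 164 and 4.08 reads per 10000000 library reads. Its knockdown to wild type ratio was 0.0248 (exact 95% interval 0.00505 to 0.0741). The window on chromosome 2 from 7048000 to 7048499, at the F-box family gene LOC_Os02g13220 and a CACTA transposon gene beside it, went the other way, with 10 reads in wild type and 77 in the knockdown and a ratio of 8.41 (4.34 to 18.2). With 1 small RNA library per genotype the intervals cover counting error only and compare these libraries, not the genotypes. For these coordinates the genome build is not stated in the sources used here.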

How the data were processed

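The authors deposited, per the file headers, FPKM of 6 mRNA libraries for genes they called changed, rounded to 2 decimals, beside their log2 ratio (knockdown to wild type), p-value and FDR, called adjusted p here. Per the labels' protocols the mRNA kit kept strand. TopHat2 2.1.0, Bowtie 1.1.2 and edgeR are named in the submitters' processing notes without the step each served, and genome build, annotation and filters remain not stated. The authors' small RNA tables hold a signal in RPTM, read as reads per 10000000 library reads, and a fold ratio per 500-base window. All 121 and 100 nonzero values were whole multiples of a single step to within 0.01 RPTM, giving 8037510 and 7358372 library reads. The authors' window ratios and p-values were not used.

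Members and keyword lists were chosen with earlier results of these data known. Calls, fold changes and adjusted p-values are those of the authors' table. Means and SDs were computed over 3 libraries. Levels per library are given for the 5 members with the largest change and the 5 with the highest mean in each direction, for subfamilies of up to 3 and for neighbours within 500 locus numbers, and up to 3 genes per pathway list are named. Further genes were named after their values were seen. Keywords for RING were matched as a whole word. The re-test used limma 3.58.1 in R 4.3.3 with an intensity trend and Benjamini-Hochberg adjustment over the 1174 listed genes, and was tested on simulated data. Fold changes on log2(FPKM + 0.5) understate changes of low genes. Alternatives were pseudocounts of 0.1 and 1, the lowest 25% of genes left out, a replicate block, each library left out, and stricter limits. No member's locus ID or name was found in the RefSeq gene table (0 of 34), so no sequence is printed.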

Additional observations from a re-analysis of the deposited data

How the results depend on the processing

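The direction of these genes could not change under the settings run, since in each the libraries of the genotypes lie apart. With an adjusted p of at most 0.01 in the authors' table, 8 F-box genes fell and 7 rose, and with changes of 2 log2 units or more, 6 fell and 4 rose. Both limits remove genes by construction. Among the 26 and 8 genes past the limma re-test, leaving out 1 library gave 15 to 24 that fell and 5 to 8 that rose, the lowest without knockdown replicate 1 and wild type replicate 1. Over all listed genes 66.4% to 94.5% of those that fell and 64.0% to 94.4% of those that rose then passed. Leaving out the lowest 25% of genes kept 18 and 4, which are all those still tested (97.5% and 92.0% over all listed genes). Without replicate 2 of both genotypes, a setting chosen after seeing the data, 23 and 8 passed (94.0% and 89.0% over all listed genes). Gene by gene, 45 of 362 re-tests lost the call. The cause was not tested.

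The median difference on the log2 scale, -0.60 for genes that fell and 0.72 for those that rose, was -1.23 and 1.5 with a pseudocount of 0.1 and -0.38 and 0.49 with 1, a shift that follows from the pseudocount at these levels. It was -0.73 and 1.19 without the lowest 25%, -0.71 to -0.52 and 0.60 to 0.90 with 1 library left out, and 0.98 for those that rose without replicate 2 of both genotypes. Over all listed genes the median with a pseudocount of 0.5 was -0.95 for those that fell and 0.93 for those that rose.

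Replicate numbers gave no sign of pairing the libraries over the 1174 listed genes. Same-numbered deviations correlated at -0.04, -0.53 and -0.43, and 0 of 6 libraries correlated best with its own number. Over the 34 F-box genes the correlations were 0.32, -0.06 and -0.29. These genes were selected for differing between the genotypes, so whether plants or batches were paired is not settled. With a replicate block 25 and 7 genes passed (77.0% and 73.1% over all listed genes). Library depth is unknown, and at these low levels it limits how small a difference could be seen.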
